A study of Mus musculus with 6 samples.

Results

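Etv1, Etv4 and Etv5 form the PEA3 group of ETS transcription factors, and their transcripts were followed here in the gastric antrum of mice with a germline K641E mutation in Kit, a receptor tyrosine kinase that this mutation activates. The 3 genes were found by the symbol that the platform annotation gives to each probe, which matched 5 of 38467 probes, 3 for Etv1 and 1 each for Etv4 and Etv5. After probes of a gene were averaged they were 3 of 15123 named genes and of 30649 features tested, the others being unnamed probes. Antral tissue came from 3 pairs of littermates at postnatal day 14, each with 1 KitK641E:Neo/K641E:Neo animal, homozygous for the germline K641E allele, and 1 KitWT/WT animal. Both RNAs of a pair were compared directly on 2 arrays, the second with Cy5 and Cy3 swapped, which makes 6 arrays but only 3 replicates. The labels do not say what Neo stands for in the allele name, and they list no other treatment or allele.

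PEA3 factors bind DNA through the ETS domain, which recognises a core of GGAA, and are switched on by receptor tyrosine kinases through the Ras and MAP kinase cascade, which both induces their transcripts and stabilises their proteins. In the gut wall Etv1 is known as a lineage factor of interstitial cells of Cajal, which pace the muscle, need Kit and are regarded as the origin of gastrointestinal stromal tumours. Etv4 and Etv5 are widely used in development as readouts of fibroblast growth factor and GDNF signalling. The repressor Capicua keeps genes of this group silent until MAP kinase signalling inactivates it.

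Promoter windows of 2 members are shown because the GGAA core is the letters the factors themselves read. TGAATG is the core of octamers that Capicua reads, among them TGAATGAA and TGAATGGA. Each runs from 250 bases before to 50 bases after a transcription start, from RefSeq on build GRCm38.p6. The table used holds 2 windows for Etv1 and 2 for Etv5. The window at the first listed start of Etv1 is chr12:38779832-38780131 on the plus strand, and capitals mark GGAA on either strand. The window at the second listed start of Etv5 is chr16:22438319-22438618 on the minus strand, and capitals mark TGAATG on either strand.
Etv1: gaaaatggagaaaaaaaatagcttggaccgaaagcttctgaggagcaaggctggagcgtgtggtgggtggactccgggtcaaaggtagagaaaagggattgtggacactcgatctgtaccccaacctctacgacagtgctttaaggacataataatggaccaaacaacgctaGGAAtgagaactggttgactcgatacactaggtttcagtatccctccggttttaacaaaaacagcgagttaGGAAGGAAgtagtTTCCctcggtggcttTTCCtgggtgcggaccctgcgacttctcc
Etv5: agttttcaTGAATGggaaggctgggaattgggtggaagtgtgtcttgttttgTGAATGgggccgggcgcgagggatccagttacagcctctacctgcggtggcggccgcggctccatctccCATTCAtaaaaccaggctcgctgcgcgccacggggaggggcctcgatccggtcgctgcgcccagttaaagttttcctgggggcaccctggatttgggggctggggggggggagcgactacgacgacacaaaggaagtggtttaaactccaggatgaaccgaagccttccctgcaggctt
The Etv1 window holds GGAA at 5 places, none overlapping, and 28.6% of all 32851 windows hold it at least that often. The Etv5 window holds TGAATG 3 times, each continued as TGAATGGG, while 12.7% of all windows hold TGAATG at least once and 0.17% at least 3 times. TGAATGGG is the continuation found in this window and is not 1 of the Capicua octamers named above. It is held at least once by 1.08% of all windows. The 1 window that holds it at least 3 times is this Etv5 window itself, so that count is no measure of rarity. Of the windows not printed, the other one of Etv1 holds GGAA at 1 place and TGAATG at 0, and the other one of Etv5 holds 0 of each. The printed Etv5 window also holds GGAA at 6 places, left in lower case, and the printed Etv1 window holds TGAATG at 0; the windows were chosen for print after their matches were counted. The octamers TGAATGAA and TGAATGGA had 0 matches on either strand in any of the 4 windows, against 1.3% and 1.21% of all windows with a match. These matches describe letters only, and occupancy was not measured in this study.

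Values are log2 ratios between the channels, with the sign turned where the mutant was in Cy3, so that they read likely mutant over wild type. The direction and base 2 are not stated in the labels. The direction rests on the usual order of red over green and on 2 genes that the published title reports as up-regulated, Spry4 and Tpbg, both of which lie above 0 when read this way. The signs of the members are therefore not independent of Spry4, which is itself a target of the same pathway. Folds assume base 2. The table gives no spot brightness or background, so the level of a gene, and the identity of the tissue from its markers, cannot be read from it, and the small number of pairs limits the precision. Across all features the medians of the 3 pair means lay between 0.0015 and 0.003. Across features, which are not independent replicates, r was 0.45 between the means of pairs 2 and 3, -0.08 between pairs 1 and 2, and 0.11 between pairs 1 and 3.

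Etv1, Etv4 and Etv5 did not move alike. Etv1, averaged over its probes, and Etv4 lay above 0 on 6 of 6 arrays, as did 3.87% of all features. Etv5 lay above 0 on both arrays of pair 1 and below 0 on the 4 arrays of pairs 2 and 3. The mean log2 ratios were 0.89 ± 0.35 for Etv1, 0.41 ± 0.11 for Etv4 and -0.17 ± 0.11 for Etv5 (limma's moderated SE, n = 3 pairs), which are 1.86-fold, 1.33-fold and 0.887-fold. None of the 3 passed limma's test over all features (adjusted p 0.923 for each), where 0.00653% of features were called in either direction, 2 higher and 0 lower. At an unadjusted limma p below 0.05, 840 features were higher and 662 lower, where 1532 in either direction are expected by chance.

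Etv1 differed far more between pairs than between the arrays of a pair. Averaged over its 3 probes, it had 0.04 and 0.11 on the arrays of pair 1 with the mutant in Cy5 and in Cy3. It had 1.70 and 1.77 in pair 2, and 0.84 and 0.89 in pair 3. Pair 1 was close to 0 and pair 2 highest, and the arrays of the 3 pairs did not overlap. The pair means were 0.08, 1.73 and 0.86, or 1.06-fold, 3.33-fold and 1.82-fold. The 2 arrays of a pair differed by at most 0.07, whereas the pair means spanned 1.66, so the SE of Etv1 reflects unlike pairs and not unlike arrays. Its 95% interval ran from -0.10 to 1.88 (unadjusted limma p 0.0661). Of all features, 0.493% had a mean ratio at or above that of Etv1, 0.408% had as high a ratio in pair 2 and 0.94% in pair 3.

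The 3 Etv1 probes gave the pairs in the same order but differed in size. Probe mMC023196 had 0.456 and 0.404 in pair 1, 2.493 and 2.510 in pair 2, and 1.420 and 1.636 in pair 3, in each case first with the mutant in Cy5. Probe mMR029346 had -0.218 and 0.047 in pair 1, 1.437 and 1.618 in pair 2, and 0.650 and 0.676 in pair 3. Probe mMC020443 had -0.113 and -0.110 in pair 1, 1.172 and 1.179 in pair 2, and 0.457 and 0.349 in pair 3. All 3 probes were above 0 on the 4 arrays of pairs 2 and 3, and in pair 1 mMC023196 alone was above 0 on both arrays. Over pairs the 3 probes had means of 1.49, 0.70 and 0.49 in that order. Probe mMC023196 exceeded each of the others on 6 of 6 arrays, by 0.78 ± 0.24 (SD, n = 3) over mMR029346 and by 1.00 ± 0.41 over mMC020443.

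The annotation assigns the 3 probes to the same Etv1 transcript accession, and RefSeq lists 3 curated and 8 model transcripts of the gene. Where the probes lie in those transcripts was not analysed here. Tested one probe at a time over all probes, each had a limma adjusted p of 0.915. The size of the Etv1 ratio thus depended on the probe, and the order of the pairs did not.

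**Figure D1:**
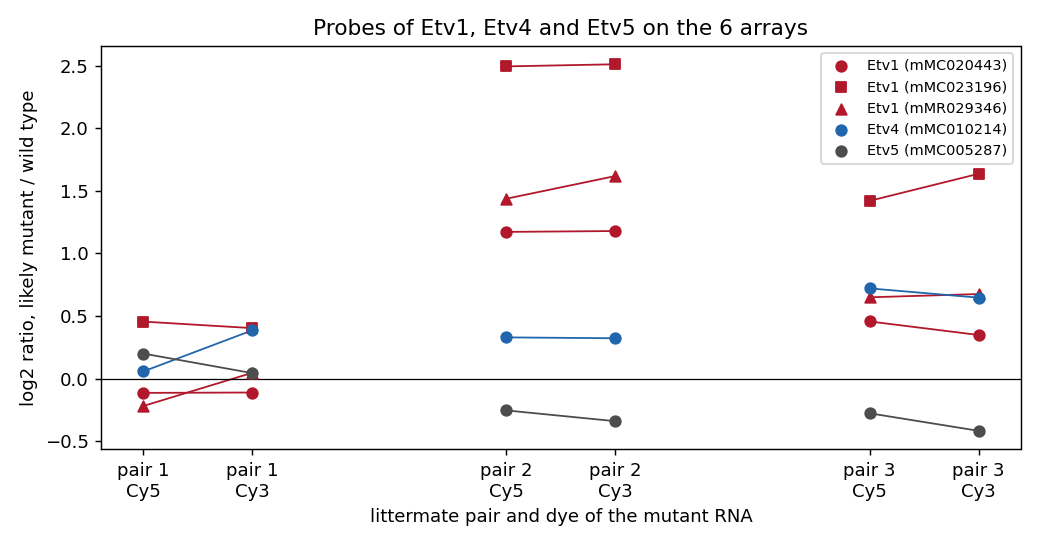
Log2 ratio, likely mutant over wild type, of each of the 5 member probes (vertical axis) on the 6 arrays (horizontal axis, by littermate pair and dye of the mutant RNA); lines join the 2 arrays of a pair. Each of the 3 Etv1 probes is highest in pair 2, Etv5 is below 0 in pairs 2 and 3, and the widest gap between joined points is that of Etv4 in pair 1, 0.058 and 0.386.

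Etv4 had a spread over pairs close to that of Etv5 (SD 0.24 and 0.26) and smaller than that of Etv1 (SD 0.83). Its single probe, mMC010214, had 0.058 and 0.386 in pair 1, 0.330 and 0.323 in pair 2, and 0.721 and 0.647 in pair 3. Pair 3 was highest and its arrays did not overlap those of the other pairs, while pairs 1 and 2 overlapped. The pair means were 0.22, 0.33 and 0.68, or 1.17-fold, 1.25-fold and 1.61-fold. The 2 arrays of pair 1 differed by 0.33, which is near the 0.46 that the pair means spanned. The 95% interval ran from 0.10 to 0.72 (unadjusted limma p 0.0210). Etv4 was the 1 member of 3 with an unadjusted p below 0.05 and a ratio above 0, a class that held 2.74% of all features, and 1.87% had a mean ratio at or above its own.

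Etv5 was the member with a ratio below 0. Its single probe, mMC005287, had 0.201 and 0.045 in pair 1, -0.253 and -0.339 in pair 2, and -0.276 and -0.416 in pair 3. Pairs 2 and 3 overlapped and lay below pair 1. The pair means were 0.12, -0.30 and -0.35, or 1.09-fold, 0.815-fold and 0.787-fold. The 95% interval, from -0.50 to 0.15, included 0 (unadjusted limma p 0.208). Of all features, 14.5% shared its pattern of a ratio above 0 in pair 1 and below 0 in pairs 2 and 3, and 5.47% had a mean ratio at or below that of Etv5.

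Set against each other on the same arrays, Etv5 lay near the other members in pair 1 and below both in pairs 2 and 3, while Etv1 stood well above Etv4 in pair 2 but not in pairs 1 and 3. Etv1 minus Etv5 was -0.05 in pair 1, 2.03 in pair 2 and 1.21 in pair 3. Etv4 minus Etv5 was 0.10, 0.62 and 1.03, above 0 in 3 of 3 pairs and on 5 of 6 arrays. Etv1 minus Etv4 was -0.14, 1.41 and 0.18. The mean differences were 1.07 ± 1.05, 0.58 ± 0.47 and 0.48 ± 0.82 (SD, n = 3), and with 3 pairs the exact two-sided sign-flip permutation test cannot give a p below 0.25. It gave 0.5, 0.25 and 0.5, each 0.5 after adjustment over the 3 differences. For Etv1 and Etv4, neighbours in the order of means, the difference was smaller than its SD over pairs.

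Beside the receptor itself, Etv1 had nearly the ratio of Kit in every pair. Kit, measured by 1 probe, had pair means of -0.02, 1.89 and 0.81, and Etv1 minus Kit was 0.10, -0.16 and 0.05. Since the 3 Etv1 probes alone spread from 0.49 to 1.49, the nearness of the averages does not show equal change. Spry4, the Sprouty inhibitor that feeds back on receptor tyrosine kinases, had 0.46, 2.17 and 1.51, and Tpbg, a cell-surface glycoprotein, had 0.82, 2.54 and 2.53. Etv4 minus Spry4 was -0.24, -1.84 and -0.82, so Etv4 did not share the size of the Spry4 ratio in pair 2. In whole tissue, fewer cells of a type and less RNA per cell cannot be told apart, and this holds for all ratios here.

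**Figure D2:**
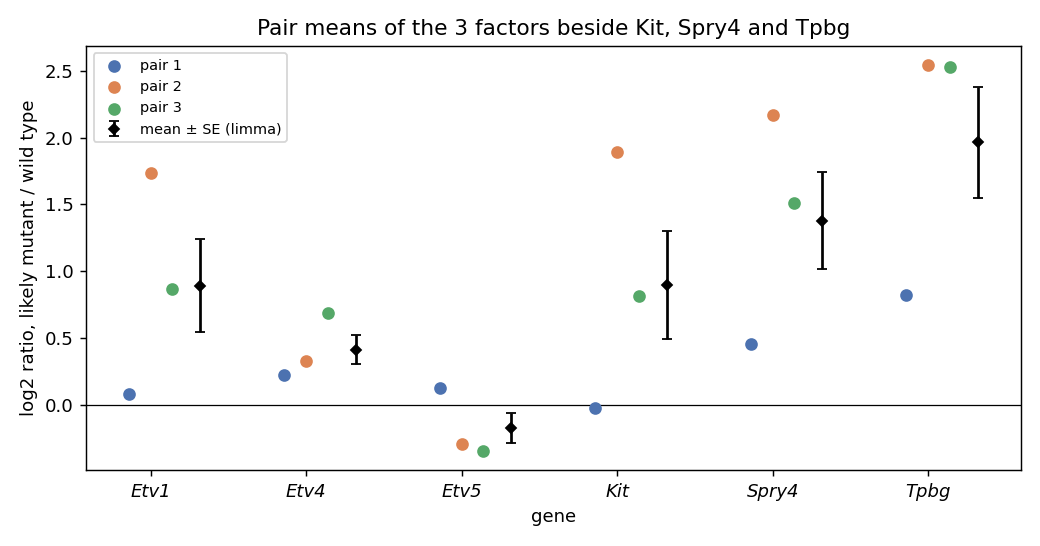
Log2 ratio, likely mutant over wild type (vertical axis), for Etv1, Etv4, Etv5, Kit, Spry4 and Tpbg (horizontal axis); circles are the 3 littermate pairs and the diamond with bars is the mean with limma's SE over pairs. Etv1 and Kit have nearly the same value in each pair, from about 0 in pair 1 to 1.73 and 1.89 in pair 2, whereas Etv4 is highest in pair 3.

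By the root mean square difference over the 6 arrays, the 5 named genes nearest to Etv1 were Hspa12a, a distant member of the heat shock protein 70 family, at 0.11, Hgd, an enzyme of tyrosine breakdown, at 0.12, Chrd, which encodes the BMP antagonist chordin, at 0.12, Edn3, the ligand endothelin 3, at 0.13, and Pde9a, a phosphodiesterase of cyclic GMP, at 0.14. The median distance of named genes from Etv1 was 1.13 and 15 named genes lay within 0.2. The mean ratios of these 5 genes ran from 0.83 for Chrd to 0.99 for Edn3.

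Etv4 had 44 named genes within 0.2. Its 5 nearest were Gch1, an enzyme of tetrahydrobiopterin synthesis, at 0.10, the resistin-like gene Retnlg at 0.10, the galectin gene Lgals7 at 0.11, the growth factor gene Tgfb1 at 0.12 and the interleukin 13 receptor gene Il13ra1 at 0.13. Etv5, with ratios near 0, had 771 named genes within 0.2, so its nearest genes, Pnpla6, Fmr1nb, Pim3, Sh3d21 and Ap4b1, at 0.05 to 0.06, single out little. The 6 arrays behind these distances come from only 3 pairs.

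By the mean over pairs, Etv1 and Etv4 were the highest of the measured ETS family. Of 23 other ETS genes listed, 21 were measured, with 11 above 0, 10 below 0 and a median of 0.02, against a median of 0.00 over all features. Their means ran from -0.23 for Elf3, an epithelial ETS factor, to 0.19 for Elk3, chosen after its value was seen, a ternary complex factor that partners serum response factor. Limma called 0 of them over all features. At an unadjusted 0.05 1 was higher, Spic, a factor of red pulp macrophages, with 0.16 ± 0.04, and 1 lower, Elf4 with -0.13 ± 0.04. Of all features, 2.74% were higher and 2.16% lower at this level. Etv6, a repressor of the family, had 0.08 ± 0.04. Etv5 had a lower mean than every other measured ETS gene except Elf3. Pair by pair, Etv1 and Etv4 were the highest of the family in pair 3 only. In pair 1 Etv1, with 0.08, lay below Spic, with 0.12, and below other ETS genes. In pair 2 Etv4, with 0.33, lay below Elk3, with 0.43.

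**Figure D3:**
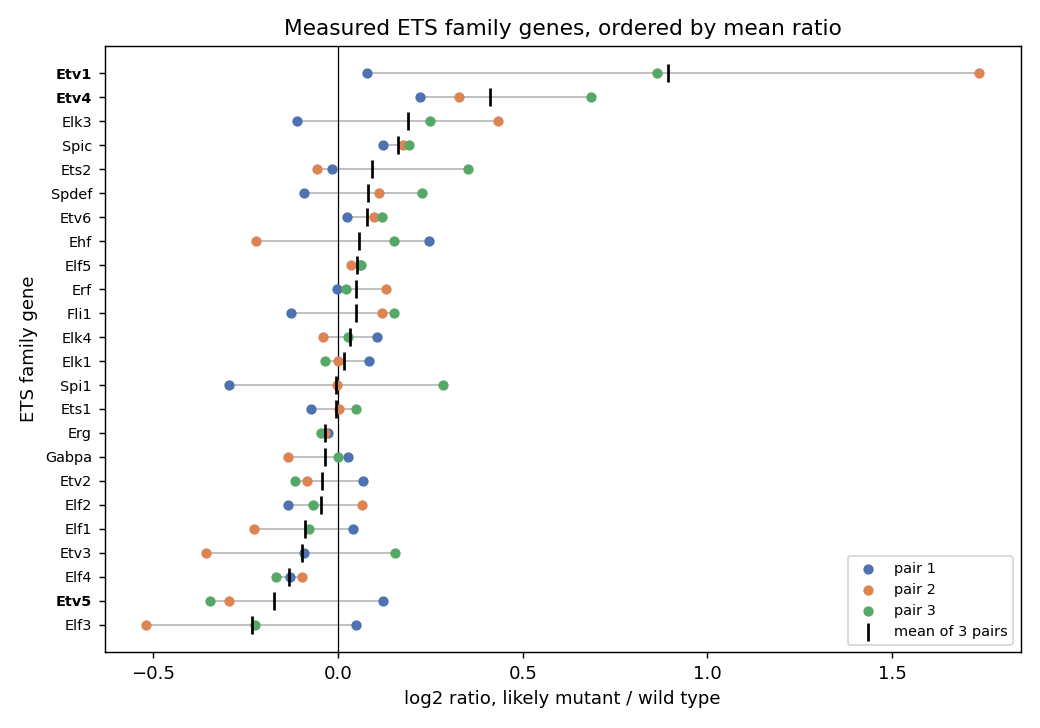
Log2 ratio, likely mutant over wild type (horizontal axis), of the 3 PEA3 factors (bold) and 21 other ETS family genes (vertical axis, ordered by mean); circles are littermate pairs, the black tick is their mean and the grey line their range. Etv1 and Etv4 are at the top and the range of Etv1 is the widest, from 0.08 to 1.73.

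Genes that act on PEA3 factors gave values close to 0 with a few exceptions. Of 19 listed, 11 were measured, 8 above 0 and 3 below, with a median of 0.04, and limma called 0 (0 also at an unadjusted 0.05). Cic, which encodes Capicua, had 0.06 ± 0.06, and Cop1, the ubiquitin ligase that marks PEA3 proteins for breakdown, had 0.02 ± 0.04; both were chosen for their role after their values were seen. Trib2, a pseudokinase adaptor related to those that bring targets to Cop1, had 0.02, 1.76 and 1.28 in pairs 1, 2 and 3, and its mean of 1.02 ± 0.38 did not pass. Map2k1, which encodes the MAP kinase kinase MEK1, had 0.22, 1.25 and 0.24. Ddb1, a core part of the same ligase complex, had 0.12 ± 0.04.

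Among receptors and ligands upstream, 14 of 15 were measured, 5 above 0 and 9 below, with a median of -0.04, and limma called 0 (0 at an unadjusted 0.05). Kit had the highest mean, 0.89 ± 0.40. Fgfr1, a fibroblast growth factor receptor, had 0.31 ± 0.16, and Pdgfrb, the kin receptor of pericytes and smooth muscle, -0.13 ± 0.07.

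Genes that, like Etv4 and Etv5, are used as readouts of MAP kinase output had a median of 0.23, with 11 of 14 measured members above 0. Of all 30649 features, 15982 were above 0. Limma called 0 over all features and 4 were higher at an unadjusted 0.05, as were 2.74% of all features, namely Spry4, on which the direction of all ratios rests, Spry2 with 0.47 ± 0.13, Spry1 with 0.35 ± 0.10 and Dusp6, the phosphatase of ERK, with 0.51 ± 0.17. Over pairs 1, 2 and 3 the list had medians of 0.12, 0.18 and 0.47, beside 0.22, 0.33 and 0.68 for Etv4 and 0.12, -0.30 and -0.35 for Etv5. The receptor kinase gene Epha4, chosen after its value was seen, had 0.76 ± 0.33. The list medians stand for unlike members. Spry4, Spry2, Spry1, Dusp6 and Epha4 were each highest in pair 2, as were Il17rd and Spred2, whose values were close to 0. The other measured members were highest in pair 1 or pair 3. Of those highest in pair 2, Spry2 had 0.13, 0.72 and 0.56 over pairs, and Dusp6 had 0.22, 0.95 and 0.34. Members below 0 in pair 2 included Phlda1 with -0.93, Epha2 with -0.82 and Egr1 with -0.69, chosen after their values were seen. The 2 Spry1 probes had unlike means over pairs, -0.01 and 0.70.

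Genes reported elsewhere as PEA3 targets mostly had means over pairs close to 0, though several lay further from 0 in single pairs. Mmp14, for example, had -0.68, 0.56 and 0.02 over pairs. Icam1 had a mean of 0.40, with -0.31, 0.37 and 1.14. Both were chosen after their values were seen. Of 15 listed, 14 were measured, 9 above 0 and 5 below, with a median of 0.05. Limma called 0, and 1 was higher at an unadjusted 0.05, as were 2.74% of all features. This was the matrix metalloprotease gene Mmp9 with 0.34 ± 0.11 (pair means 0.60, 0.32 and 0.10). Its pairs ran in the opposite order to those of Etv4. Twist1, a transcription factor of mesenchyme, had 0.16 ± 0.08, and Vim, the intermediate filament vimentin, 0.52 ± 0.33 with -0.26, 1.31 and 0.53 over pairs.

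By their medians, the interstitial cell of Cajal, liver, smooth muscle and leukocyte lists had the same order of pairs as Etv1. The other marker lists did not. For leukocytes the medians of pairs 2 and 3 were nearly equal, at 0.33 and 0.31. The share of all features with this order was not counted. The interstitial cell of Cajal list, which includes Kit and Edn3 but not Etv1, had 13 of 14 members measured, 10 above 0 and 3 below. Its pair medians were 0.16, 1.41 and 0.81, beside 0.08, 1.73 and 0.86 for Etv1. The median in pair 3 is the value of Kit itself, so this list and Kit are not separate comparisons. Of these 13, limma called 0 over all features and 6 were higher at an unadjusted 0.05, as were 2.74% of all features. Prkcq, protein kinase C theta, had 2.42 ± 0.37, the phosphodiesterase gene Pde3a 1.53 ± 0.34, the connexin gene Gja1 1.77 ± 0.47 and Thbs4, thrombospondin 4, 0.62 ± 0.16. Ano1, the chloride channel that defines these cells, had -0.11 ± 0.04 on its single probe and was chosen after its value was seen.

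The liver list had pair medians of -0.13, 3.51 and 2.39 over 12 of 14 members measured, 12 above 0, and albumin, Alb, had -0.27, 5.58 and 5.14. Pair 1 was thus near 0 for Etv1, Kit and liver transcripts alike, and pair 2 had the highest value of each. The part of liver or other tissue in the ratios of the members was not tested. Smooth muscle genes had medians of -0.88, 0.29 and -0.65, with 10 of 10 measured means below 0, from -0.6435 to -0.0037. Lmod1, an actin nucleator and the member with the lowest limma p, had -0.40 ± 0.06. Unlike the list median, Lmod1 was below 0 in pair 2 too, with -0.32, -0.35 and -0.52 over pairs. Exocrine pancreas genes had medians of -2.41, -0.10 and 0.07 over 6 measured members, 6 below 0.

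Enteric neuron genes had pair medians of -0.44, 0.09 and 0.19, gastric epithelium 0.18, -0.24 and 0.00, leukocytes -0.09, 0.33 and 0.31, and mast cells, which also depend on Kit, 0.08, -0.02 and -0.01. Limma called 1 gene of all these marker lists, S100a8 of the leukocyte list, a calprotectin subunit of neutrophils, which was higher, a call lost without any 1 pair (limma adjusted p 0.378 to 1.00). The mutant and wild-type animals of pair 3 also differed for Eif2s3y, a gene of the Y chromosome, with -5.06 against -0.03 and -0.05 in pairs 1 and 2. If the sexes differ in pair 3, as this ratio implies, sex and genotype cannot be told apart in that pair. Without pair 3 the mean ratios were 0.91 for Etv1, 0.27 for Etv4 and -0.09 for Etv5. The mean log2 ratio of Etv1 was 0.47 without pair 2 and 1.30 without pair 1, against 0.89 over all 3 pairs.

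**Figure D4:**
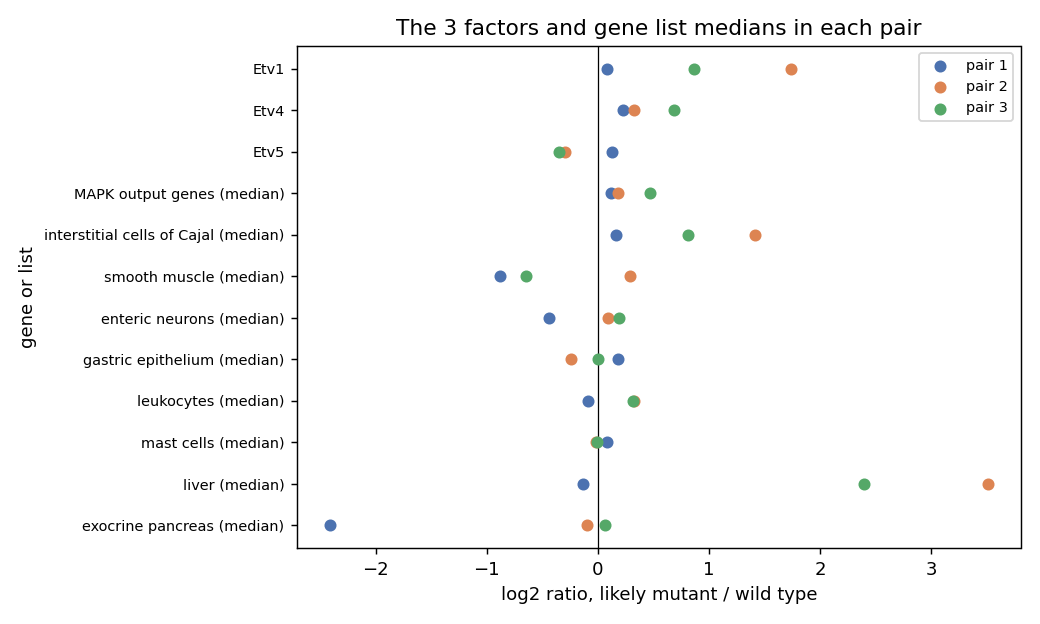
Log2 ratio, likely mutant over wild type (horizontal axis), in each littermate pair for the 3 PEA3 factors and, for 9 gene lists, the median over measured members (vertical axis). Etv1 and the interstitial cell, liver, smooth muscle and leukocyte medians have the same order of pairs, lowest in pair 1 and highest in pair 2. Etv4 and the median of the MAP kinase output list, whose members differ in order, are highest in pair 3.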

How the data were processed

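The authors deposited 1 table of log2 ratios for 38467 probes of 70 bases on 6 two-colour arrays, with no missing value. The log2 scale is inferred from the values, whose largest size of 5.831 exceeds 4.8165, the log10 of the scanner maximum of 65535; a natural logarithm is not excluded. Array medians lay between -0.003 and 0.004 as deposited. The authors' background correction and normalization method were not given in the sources used for this work. Within pairs 1, 2 and 3 the arrays as deposited correlated at -0.61, -0.74 and -0.83 across probes, so the values follow the dyes.

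Ratios with the mutant in Cy3 were turned, probes averaged per gene and the 2 arrays of each pair averaged, since they hold the same RNA. Pair means were tested against 0 with limma 3.58.1 in R 4.3.3 (lmFit, eBayes, two-sided, Benjamini-Hochberg over 30649 features, threshold 0.05, 2 residual and 1.80 prior degrees of freedom). The code was tested on simulated data. The annotation names 1 gene for 22941 probes (59.6%), several for 0 and none for 15526; RefSeq changed 0 symbols.

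The genes named are the members, Kit, Spry4 and Tpbg, up to 4 genes of each list by lowest limma p and the 5 named genes nearest to each member by root mean square difference. Elk3, Epha4, Cic, Cop1, Ano1, Alb, S100a8 and Eif2s3y were added. So were Il17rd, Spred2, Phlda1, Epha2, Egr1, Mmp14 and Icam1, which were not run under the alternatives. Members and lists were chosen with earlier results of these data known. Alternatives changed centring, scaling, probe averaging, dye orientation, replicate unit, dye term, prior, feature set and pairs left out.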

Additional observations from a re-analysis of the deposited data

Results flagged for a closer look

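Map2k1 was the 1 of 52 genes and probes examined whose values over the 6 arrays held 1 array far from the others. It had 1.879 in pair 2 with the mutant in Cy5, against 0.614 on the other array of that pair and 0.168 to 0.321 on the remaining arrays. About 1 in 20 groups is flagged by chance where samples are independent, which the 2 arrays of a pair are not. None of Etv1, Etv4, Etv5 or the 3 Etv1 probes had such an array.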

How the results depend on the processing

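Etv1, Etv4 and Etv5 kept their direction and stayed short of the threshold in all 41 values under the alternatives run. Values ran from 0.47 to 1.49 for Etv1, from 0.27 to 0.51 for Etv4 and from -0.32 to -0.09 for Etv5, and limma adjusted p from 0.299 to 1.00, 0.206 to 1.00 and 0.407 to 1.00. The lowest for Etv1 and Etv4 came from fitting the 6 arrays separately with pair as a random block, and the lowest for Etv5 from leaving out pair 1. The 2 features called over all features, none of them a member, became 0 with arrays scaled to a common spread, 1 with quantile normalization, 0 with the mutant in Cy5 only, 1 with the mutant in Cy3 only, 0 with each probe on its own and 0 without any 1 pair. They became 61 when the 6 arrays entered with pair as a random block, and 15 when a dye term was added to that fit. For 46 other named genes, 544 of 552 values kept direction and side of the threshold. The exceptions were Prkcq, which passed with pair as a random block (2.42, limma adjusted p 0.0235), and S100a8, which kept its direction but missed the threshold without any 1 pair, with either dye orientation alone, with common scaling and with quantile normalization. Of 169 list medians, 4 moved by more than the spread between pairs, 3 for the regulators of PEA3 factors and 1 for the reported targets. The cause of these shifts was not tested. With 3 pairs, a ratio that differs between pairs as that of Etv1 does has a wide interval.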
